A study of Mus musculus with 112 samples.

Results

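The sterol synthesis genes described here are 7 enzymes of the cholesterol pathway, Hmgcs1, Idi1, Fdps, Fdft1, Sqle, Lss and Cyp51, and the regulator Insig1. They were taken by name, and every probe set whose only platform symbol is one of these genes was used: 19 of 22626 probe sets on array A and 2 of 22511 on array B. All 8 genes were measured, of 18194 genes that the arrays name by a single symbol, and 7 of them were on array A. Insig1 had 1 probe set, on array B.

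The samples were 56 mammary tumours, each labelled as a biological replicate of its subline. They came from crosses between AKXD recombinant inbred sublines (derived from the inbred strains AKR/J and DBA/2J) and mice with the MMTV-PyMT transgene. This transgene drives the polyoma middle T antigen from the mouse mammary tumour virus promoter, which is active mainly in mammary epithelium, and all tumours carried it, so there was no group without it. Each tumour was hybridised to an MOE430A and an MOE430B array of Affymetrix, called arrays A and B here, and the deposited values are on a log2 scale made with RMA, a method that corrects background, normalizes and sums the probes of a probe set. Of the 18 sublines 16 had 3 tumours and 2 had 4, sublines 2 and 25. Ages, sexes and treatments: not given in the sources used here. No subline served as a control.

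The rule that chose the genes also left out some arrays. On array A these were all 3 tumours of subline 23 and tumour 3 of subline 25. On array B they were tumour 3 of subline 11, tumour 2 of subline 23 and tumour 3 of subline 25. This left 52 tumours of 17 sublines on array A, 53 tumours of 18 sublines on array B, and 51 tumours on both. Across the kept arrays A the median correlation of an array with the others lay between 0.970 and 0.991. The epithelial markers Epcam (12.32 to 13.35) and Krt8 (11.60 to 12.94) were high in all 52 tumours. Muscle and fat markers varied widely, with Ckm, muscle creatine kinase, between 7.55 and 13.07 and Adipoq, adiponectin, between 5.34 and 11.40. In whole tumour RNA, fewer cells of a type and less RNA per cell cannot be told apart.

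Cholesterol is built from acetyl-CoA through mevalonate, isoprenoid diphosphates, squalene and lanosterol. When sterols in the endoplasmic reticulum are scarce, SREBP-2, a transcription factor bound there to its partner SCAP, is carried to the Golgi apparatus. SREBP-2 is then cut by proteases and enters the nucleus, where it switches on most genes of the pathway. INSIG1 retains SCAP and SREBP in the endoplasmic reticulum while sterols are plentiful, and its own gene is a target of SREBP. Dividing tumour cells need cholesterol for membranes and isoprenoids for anchoring proteins such as Ras.

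Promoter sequence was looked up because genes of the pathway share SREBP binding sites, and 5 of the 8 genes had an entry in the RefSeq promoter table (GRCm38.p6, 250 bases before to 50 after the start of the gene). Shown 5′ to 3′ are those of Hmgcs1 and of Cyp51 and Idi1, whose probe sets followed Hmgcs1 with the steepest slopes among tumours. Capitals mark the letters TCACNCCAC, a form of the sterol regulatory element, and CCAAT, the NF-Y box, on either strand (CCAAT reads ATTGG on the other strand).
Hmgcs1: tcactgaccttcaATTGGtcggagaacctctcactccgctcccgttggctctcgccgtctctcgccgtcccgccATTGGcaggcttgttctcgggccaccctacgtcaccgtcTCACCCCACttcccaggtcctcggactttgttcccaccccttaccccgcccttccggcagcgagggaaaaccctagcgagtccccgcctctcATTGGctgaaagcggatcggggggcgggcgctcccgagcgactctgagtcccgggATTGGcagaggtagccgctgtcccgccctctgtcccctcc
Cyp51: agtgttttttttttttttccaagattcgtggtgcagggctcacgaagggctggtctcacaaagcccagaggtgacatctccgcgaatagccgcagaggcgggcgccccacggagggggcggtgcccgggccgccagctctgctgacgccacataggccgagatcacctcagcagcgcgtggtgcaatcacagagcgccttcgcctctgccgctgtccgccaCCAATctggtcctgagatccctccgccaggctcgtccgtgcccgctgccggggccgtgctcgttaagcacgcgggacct
Idi1: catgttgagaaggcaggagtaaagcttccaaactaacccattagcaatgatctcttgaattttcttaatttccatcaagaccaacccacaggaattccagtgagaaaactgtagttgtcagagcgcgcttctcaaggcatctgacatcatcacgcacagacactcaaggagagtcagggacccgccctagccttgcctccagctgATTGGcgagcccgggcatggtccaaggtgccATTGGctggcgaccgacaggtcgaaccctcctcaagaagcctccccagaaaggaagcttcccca
The windows are chr13:119690101-119690400 (plus strand) for Hmgcs1, chr5:4104648-4104947 (minus strand) for Cyp51 and chr13:8885356-8885655 (plus strand) for Idi1. TCACNCCAC occurred once among the 5 promoters, in Hmgcs1, with its first base at position -137 from the start, and in 1.24% of all 32851 promoters of the table. CCAAT was present in 5 of 5, against 37.4% of all promoters, and GGGCGG, the GC box (not capitalised), in 5 of 5, against 35.7%. The matches of these 3 letter strings did not overlap one another in the windows shown. No match says only that these letters are not in the window.

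The levels of the 8 genes are described first, in the order of the pathway. Hmgcs1 encodes the cytosolic HMG-CoA synthase, which joins acetyl-CoA to acetoacetyl-CoA ahead of mevalonate. Its brightest probe set, 1433443_a_at, ran from 9.47 through a median of 10.04 to 10.86 on the log2 scale, a 2.62-fold range over 52 tumours. The highest value was in tumour 3 of subline 16 and the second highest, 10.71, in tumour 2 of subline 2, while tumour 1 of the same subline 2 had the lowest. Tumours of 1 subline thus spanned nearly the whole range, as the plot of levels by subline shows.

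Idi1 encodes the isomerase of isopentenyl diphosphate, which makes the second isoprene building block. Its brightest probe set, 1451122_at, ran from 8.66 through a median of 9.57 to 10.68, a 4.04-fold range and the widest of the 7 array A genes. Fdps, farnesyl diphosphate synthase, which joins isoprene units into the precursor of sterols and of protein farnesyl groups, ran from 9.82 through 10.51 to 11.32 (1423418_at). Both had their lowest value in tumour 1 of subline 21 and their highest in tumour 3 of subline 16.

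Fdft1, squalene synthase, commits farnesyl diphosphate to sterols. It had the narrowest range of the 8 genes, from 8.31 through 8.64 to 9.31 (1448130_at, 2.00-fold). Sqle, squalene epoxidase, which adds the oxygen needed for ring closure, ran from 9.46 through 9.92 to 10.60 (1415993_at). Its highest tumour was tumour 1 of subline 10, not one of the 2 tumours that led most other genes.

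Lss, lanosterol synthase, closes the rings to give the first sterol. It ran from 8.11 through 8.74 to 9.28 (1420013_s_at). Cyp51, the demethylase that acts on lanosterol, ran from 6.90 through 7.71 to 8.70 (1450646_at, 3.46-fold). Insig1 ran from 7.38 through 8.02 to 9.41 on array B (1454671_at, 4.06-fold). Its highest tumour was tumour 1 of subline 21, the tumour in which Idi1, Fdps, Fdft1 and Lss were at their lowest.

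**Figure D1:**
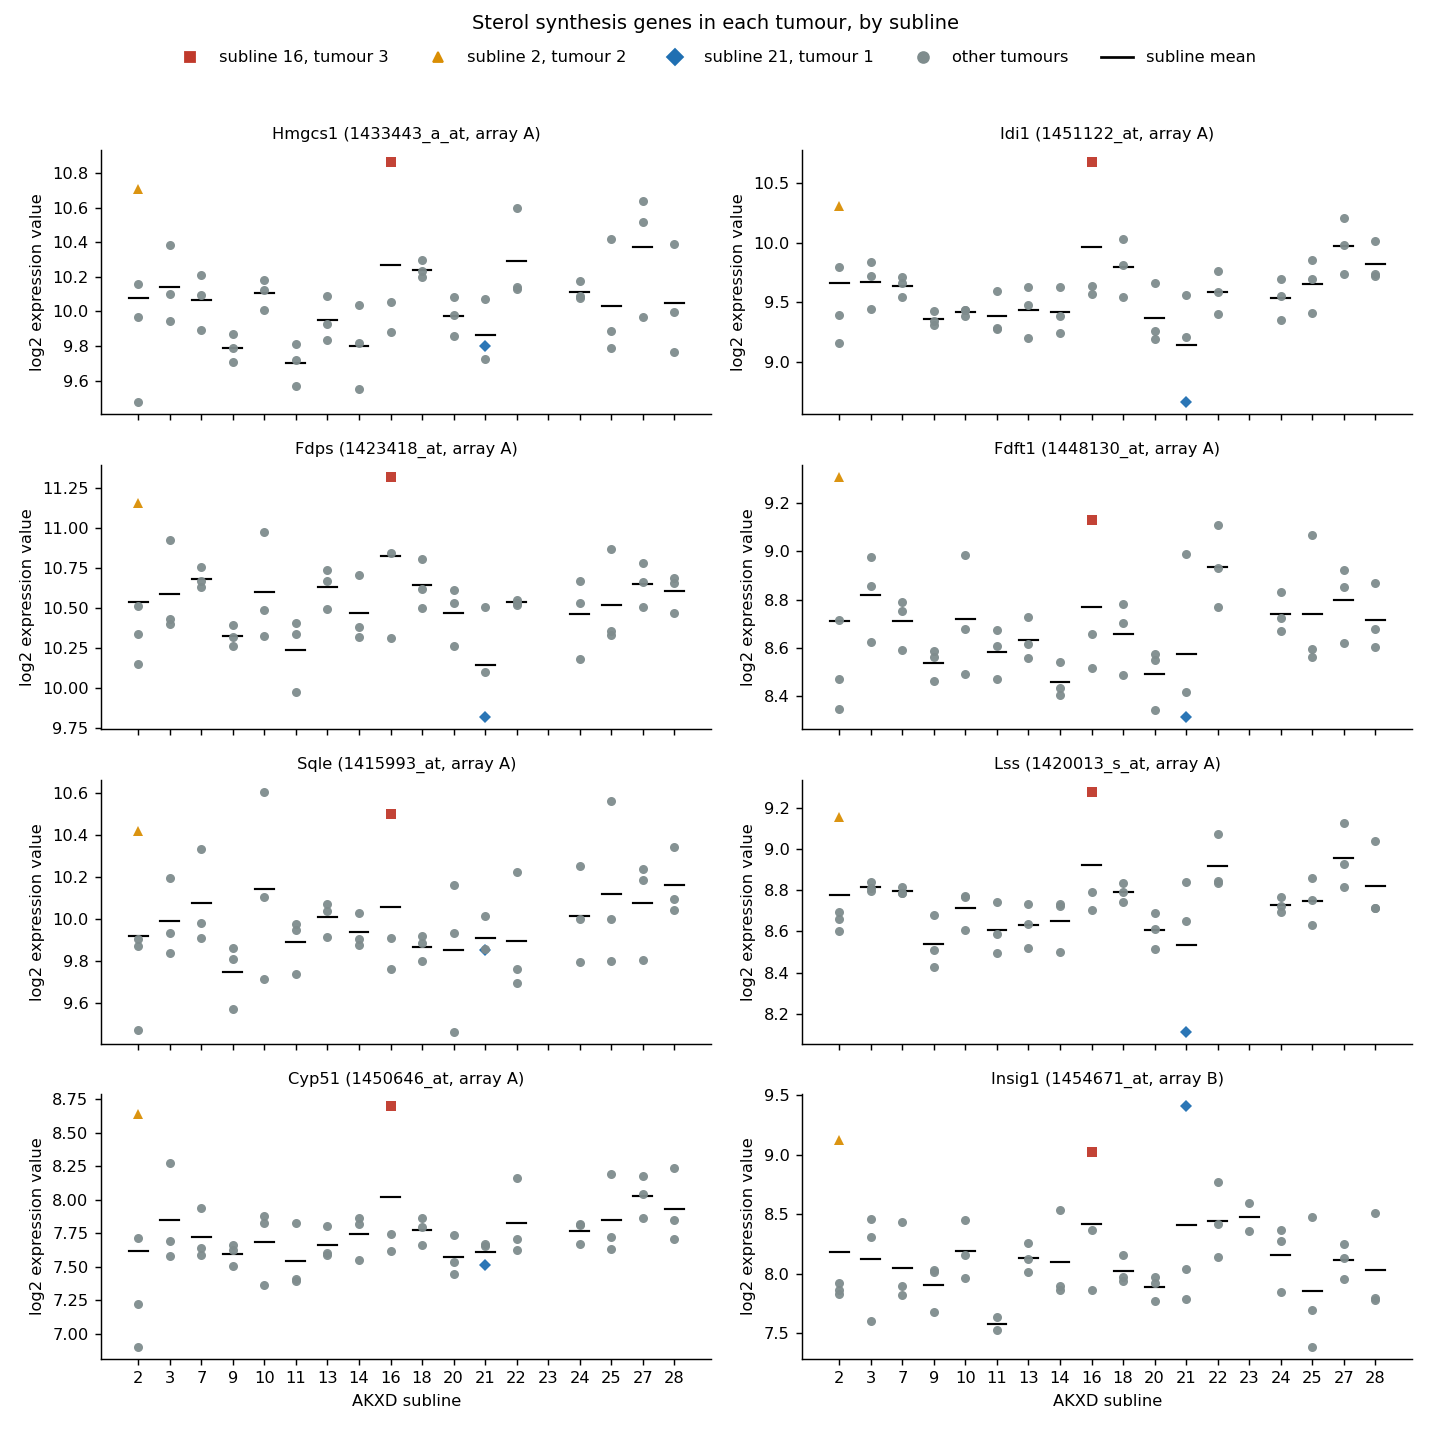
The log2 expression value of the brightest probe set of each gene (vertical axis) is plotted for each kept tumour by AKXD subline (horizontal axis), with the subline mean as a bar. Tumour 3 of subline 16 (square) and tumour 2 of subline 2 (triangle) lie at or near the top in all 8 panels, and tumour 1 of subline 21 (diamond) is lowest for Idi1, Fdps, Fdft1 and Lss and highest for Insig1 (9.41).

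Tumours tended to be high or low in the whole pathway together. Of the 51 tumours with all 8 genes, 7 were above the gene's median for all 8 and 5 for none. Tumour 3 of subline 16 and tumour 2 of subline 2 were among the 5 highest tumours for 8 of 8 genes, and on average lay 0.76 and 0.67 above the genes' means on the log2 scale. The lowest mean was that of tumour 1 of subline 2, at -0.36. The 2 other tumours of subline 16 lay at -0.07 and -0.01, so the high level belonged to 1 tumour and not to its subline.

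In tumour 1 of subline 21 Insig1 parted from the enzymes. Of the 8 genes only 1, Insig1, was above its median there. Idi1 was 8.66, Fdps 9.82, Fdft1 8.31 and Lss 8.11, each the lowest of 52 tumours. Hmgcs1 at 9.80, Sqle at 9.85 and Cyp51 at 7.51 were below their medians but not among the 5 lowest. Insig1 at 9.41 was the highest of 53. This tumour also had the lowest score of the 5 luminal epithelium markers (-0.82, against a median of 0.01), the lowest proliferation score (-0.63, against 0.02) and the highest score of the 6 basal and myoepithelial markers (0.70, against -0.03). A score averages, over the genes of a list, how far each lay above or below its own mean over the tumours. The part of these cell markers in the tumour's sterol gene levels was not tested.

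Whether tumours of different sublines differed was asked with limma's moderated F test over all subline means. None of the genes passed. On array A 0 of 19 probe sets were called at an adjusted p under 0.05, against a background of 1.74% of all 22626 probe sets (393), and on array B 0 of 2, against 0.671%. An unadjusted p under 0.05 was found for 1 of 21, Idi1 (1451122_at, limma adjusted p = 0.295). The next was Lss (1420013_s_at, adjusted p = 0.376), and the adjusted p of the others lay between 0.489 and 0.936. With arrays weighted by their quality, 8 of 19 on array A were called, where 40.8% of all probe sets were.

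Subline means spanned less than single tumours did, as means of several tumours generally do. Hmgcs1 averaged 10.38 ± 0.36 in subline 27, against 9.70 ± 0.12 in subline 11 (SD, n = 3 each), a 1.60-fold span. The 3 tumours of subline 27 had 10.64, 10.52 and 9.97 and those of subline 11 had 9.57, 9.81 and 9.72, so these 2 extreme sublines did not overlap, but 15 sublines lay between them. Idi1 averaged 9.97 ± 0.24 in subline 27, against 9.15 ± 0.46 in subline 21 (n = 3 each), a 1.77-fold span. Fdps averaged 10.82 ± 0.50 in subline 16, against 10.14 ± 0.35 in subline 21, and Insig1 8.48 ± 0.16 in subline 23 (n = 2), against 7.58 ± 0.08 in subline 11 (n = 2). All 3 tumours of subline 23 were left out on array A. The next highest subline for Insig1 was 22, at 8.44 ± 0.32 (n = 3).

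For the other genes the span was smaller: Fdft1 averaged 8.94 ± 0.17 in subline 22, against 8.46 ± 0.07 in subline 14, and Sqle 10.16 ± 0.16 in subline 28, against 9.75 ± 0.15 in subline 9. Lss averaged 8.95 ± 0.15 in subline 27, against 8.53 ± 0.38 in subline 21, and Cyp51 8.03 ± 0.15 in subline 27, against 7.54 ± 0.25 in subline 11 (SD, n = 3 each). With the sublines put in order of their means, no 2 neighbours differed by more than the pooled SD within sublines in any of the 21 probe sets; for Hmgcs1 the largest step was 0.10, against a pooled SD of 0.27. Steps between neighbours among 17 or 18 ordered means tend to be small in any case, so they do not decide whether sublines differ.

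The spread within sublines was large for these genes. The 19 probe sets of array A had a median SD within sublines of 0.241, against 0.147 over all 22626 probe sets. Their median intraclass correlation, the share of variance that lies between sublines, was -0.0068, against 0.0482 over all probe sets, and the highest was 0.218, for Idi1. A value below 0 means that subline means varied less than the spread between tumours alone would give. On array A 38.3% of all probe sets had such a value. For the brightest probe sets of the 7 genes on array A the median was 0.0614. Over the 11845 probe sets at least as bright as the dimmest of these it was 0.0889.

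Each subline was also compared with the mean of the other sublines in the same fit. Of 323 pairs of probe set and subline on array A 0 were called, against a background of 0.459% of all such pairs, and of 36 pairs on array B 0 were called, against 0.276%. At an unadjusted p under 0.05 there were 18 pairs on array A and 1 on array B. The smallest adjusted p was that of Idi1 (1451122_at) in subline 21, whose tumours had 8.66, 9.57 and 9.21 and a mean of 9.15, against 9.61 for the mean of the other sublines (difference -0.46 ± 0.17 SE, adjusted p = 0.109). Fdps (1423418_at) followed, at 9.82, 10.51 and 10.09 in subline 21, with a mean of 10.14, against 10.55 for the others (difference -0.41 ± 0.15 SE, adjusted p = 0.125). Without tumour 1 of subline 21 these differences were -0.22 and -0.25 (adjusted p = 0.584 and 0.521).

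Whether the genes vary together among tumours of the same subline was asked next, with Hmgcs1, the first of these enzymes in the pathway, as the yardstick. In limma each probe set was fitted on the Hmgcs1 level (1433443_a_at) of the same tumour, with 1 mean per subline, so that differences among sublines played no part. The slope is in log2 units of the gene per log2 unit of Hmgcs1. On array A 10 of 15 probe sets of the other members had a positive slope past the threshold, against a background of 9.98% of 22622 probe sets (2257), and 1 of 15 a negative slope, against 5.49%. The median slope of the 15 was 0.50, against -0.02 over all probe sets. Each of the 6 other enzymes had at least 1 probe set with a positive call. Hmgcs1 and the array A genes were read on the same hybridisation.

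Cyp51 followed Hmgcs1 most closely. Its slope was 1.04 ± 0.10 (SE, n = 52; 1450646_at, adjusted p = 4.42e-08), so a doubling of Hmgcs1 went with a 2.05-fold level of Cyp51, and this probe set ranked first of all 22622 by p. A second probe set of Cyp51 came at rank 3 (1422533_at, slope 0.66 ± 0.08), although it was dim, with a mean of 5.57. Fdft1 had a slope of 0.62 ± 0.09 (1448130_at, adjusted p = 2.62e-05) and came at rank 12.

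Idi1 had the steepest slope, 1.38 ± 0.21, on its dimmer probe set (1423804_a_at, adjusted p = 7.48e-05) and 0.74 ± 0.13 on its brighter one (1451122_at, adjusted p = 0.000258). Sqle had a slope of 0.66 ± 0.12 (1415993_at, adjusted p = 0.000469). The slopes of Lss (1420013_s_at, 0.40 ± 0.08, adjusted p = 0.00157) and Fdps (1423418_at, 0.50 ± 0.14, adjusted p = 0.0142) were shallower, and Fdps came at rank 1432 by p.

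Insig1, read on array B as a separate hybridisation of the same tumours, had a slope of 0.77 ± 0.21 (n = 51, adjusted p = 0.0794) and was not called. On that array 0.400% of probe sets had a positive call and 0.0355% a negative one. Without tumour 1 of subline 21 its slope was 0.81 ± 0.17 (n = 50, adjusted p = 0.0185), past the threshold, with 0.551% of probe sets called positive. Without the 2 tumours farthest from the Hmgcs1 median it was 0.44 (adjusted p = 0.57), and leaving out the tumours of 1 number in each subline gave 0.25 (number 2, adjusted p = 0.902) to 1.23 (number 1, adjusted p = 0.0086). The size of the Insig1 slope thus depended on which tumours were in the fit.

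**Figure D2:**
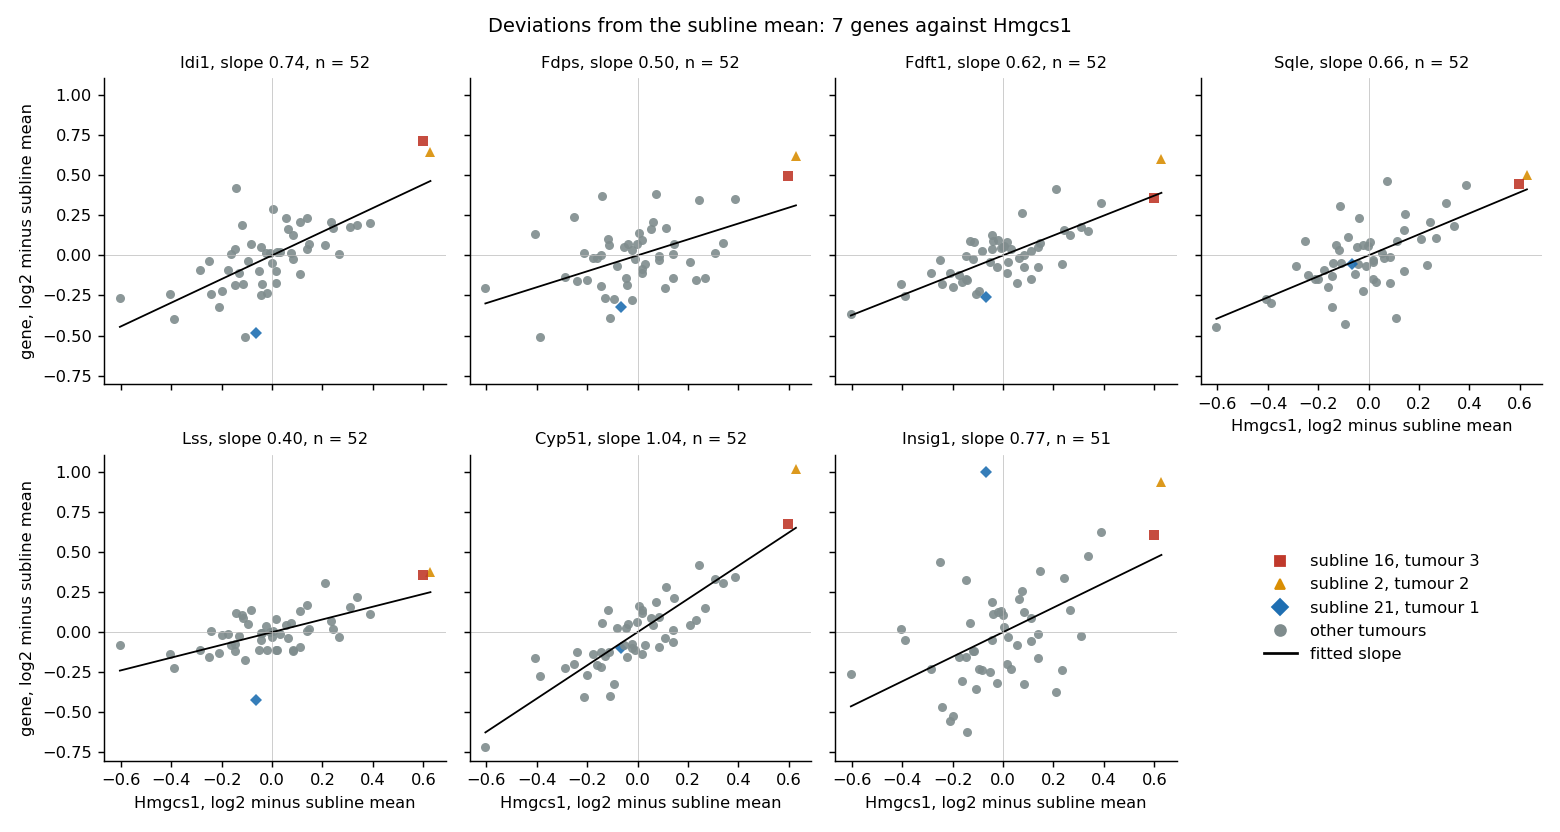
Each panel plots, for 1 gene's brightest probe set, the log2 deviation of a tumour from its subline mean (vertical axis) against that of Hmgcs1 (horizontal axis), 1 point per tumour, with the fitted slope as a line. Points rise to the right in all 7 panels, most tightly for Cyp51 (slope 1.04), and tumour 1 of subline 21 (diamond) lies far above the line for Insig1.

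Most positive calls held without the 2 highest tumours. Without tumour 3 of subline 16 and tumour 2 of subline 2, the farthest from the Hmgcs1 median, 7 of 15 probe sets kept a positive call, against a background of 2.83%, and Cyp51 had a slope of 0.81 (1450646_at, adjusted p = 0.00023). Idi1 (1451122_at), Lss (1420013_s_at) and Fdps (1423418_at) were then not called. Without the tumours numbered 2 in each subline, 6 of 15 were called (background 0.486%), of Cyp51, Fdft1, Idi1 and Sqle. Without those numbered 3, 4 of 15 were called (background 0.0884%), of Cyp51 and Fdft1.

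Scores of proliferation and of other cell types were correlated with Hmgcs1. Within sublines (n = 52, the score and Hmgcs1 read on the same array) the correlation of Hmgcs1 with the proliferation score was 0.60, and with the scores of macrophages, T cells and endothelium it was -0.42 each; with muscle and fat it was -0.33 and -0.32. The Gapdh control's signal at the 3' end less that at the 5' end, a sign of RNA quality, had a correlation of 0.39 with Hmgcs1. The same measure for beta actin had -0.06, and an array's median correlation with the other arrays had 0.12. With the Gapdh signal in the fit 9 of 15 probe sets were called positive, against a background of 9.19%. With the scores of adipocytes, skeletal muscle, T cells, and B and plasma cells in the fit, 7 of 15 probe sets were called positive, against a background of 1.10%: 2 each of Cyp51, Fdft1 and Idi1, and that of Sqle. With the scores of macrophages, endothelium and proliferation added, 3 of 15 were called, against 0.362%: Cyp51 1450646_at (slope 0.74, adjusted p = 0.00799), Cyp51 1422533_at (0.56, adjusted p = 0.0122) and Fdft1 1438322_x_at (0.49, adjusted p = 0.0357).

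Probe sets of 1 gene did not always vary together. The 4 array A probe sets of Hmgcs1 rose and fell together (Pearson r 0.70 to 0.92, n = 52 tumours on the same arrays), as did both of Idi1 (0.85). Lss 1420013_s_at, which stands for the gene here, had r = 0.07 with 1420014_at and 0.27 with 1426913_at. Cyp51 1450646_at had r = 0.83 with 1422533_at but 0.12 with 1422534_at. Fdps 1423418_at and 1438150_at had r = -0.13. Fdft1 was split. Its probe sets 1448130_at and 1438322_x_at had r = 0.91, and 1438918_at and 1438919_x_at had r = 0.81, but between these pairs r lay between -0.31 and -0.24. On Hmgcs1 the second pair had slopes of -0.21 ± 0.08 (1438918_at, adjusted p = 0.0604) and -0.31 ± 0.10 (1438919_x_at, adjusted p = 0.0244), the only negative call among the members. Names ending in _x_at mark probe sets that the array's maker expects to bind other transcripts as well, and the sequences of the probes were not used here.

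The dimmest probe sets were at the level of controls. Fdps 1438150_at (mean 4.74) and Hmgcs1 1441536_at on array B (mean 4.88) had means within the range of 9 control probe sets for bacterial transcripts on their arrays (4.20 to 5.21 on A, 3.94 to 5.44 on B). The highest tumour of Fdps 1438150_at, at 5.66, lay above that range. The slope of Fdps 1438150_at was -0.30 ± 0.13 (adjusted p = 0.0905). The next dimmest had means above the highest control but tumours close to it. Cyp51 1422534_at (mean 5.46, slope -0.02 ± 0.08) was not called. Cyp51 1422533_at (mean 5.57), called with the slope above, had its lowest tumour at 4.96, and Lss 1426913_at (mean 5.59, lowest 5.13) was called with a slope of 0.35 ± 0.11 (adjusted p = 0.0247); both of these lowest values lie within the control range. Lss 1420014_at (mean 6.11, slope 0.05 ± 0.07) lay above the controls in all 52 tumours and was not called.

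**Figure D3:**
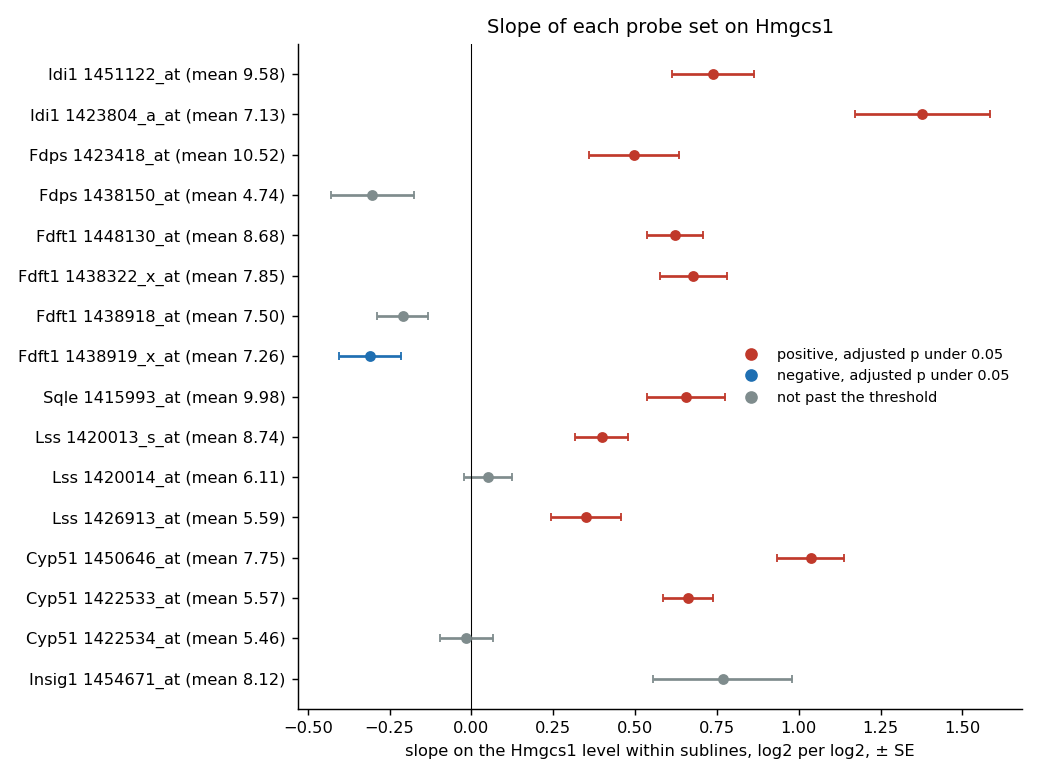
The slope of each of the 16 probe sets of the other members on the Hmgcs1 level within sublines (horizontal axis, log2 per log2, bars ± SE), grouped by gene with the mean log2 value in brackets. All but 1 of the 11 called probe sets lie to the right of 0; Fdft1 1438919_x_at lies to the left, at -0.31.

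Correlations among the genes were positive for 28 of 28 pairs. Over all tumours (n = 52, or 51 with Insig1) Pearson's r had a median of 0.63 and ran from 0.16, between Lss and Insig1, to 0.82, between Idi1 and Lss, and Spearman's rho had a median of 0.56. Taken as deviations from subline means the median was 0.65, and the closest pairs were Hmgcs1 with Cyp51 (0.86) and Fdft1 with Sqle (0.83), which follow each other by function (squalene synthase and squalene epoxidase). Without the 2 tumours farthest from the median of the first gene the median r was 0.59. Genes read on 1 array share a tumour's RNA and hybridisation, as pairs of the 7 enzymes do, while Insig1, on its separate array, had values of 0.16 to 0.50 over all tumours, among them the 5 lowest of the 28. Without the 2 tumours farthest from the median of the other gene, the value with Insig1 was 0.38 for Lss, 0.35 for Idi1 and 0.57 for Fdps, all higher than before, but 0.29 for Cyp51, 0.28 for Fdft1, 0.33 for Hmgcs1 and 0.37 for Sqle, all lower.

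**Figure D4:**
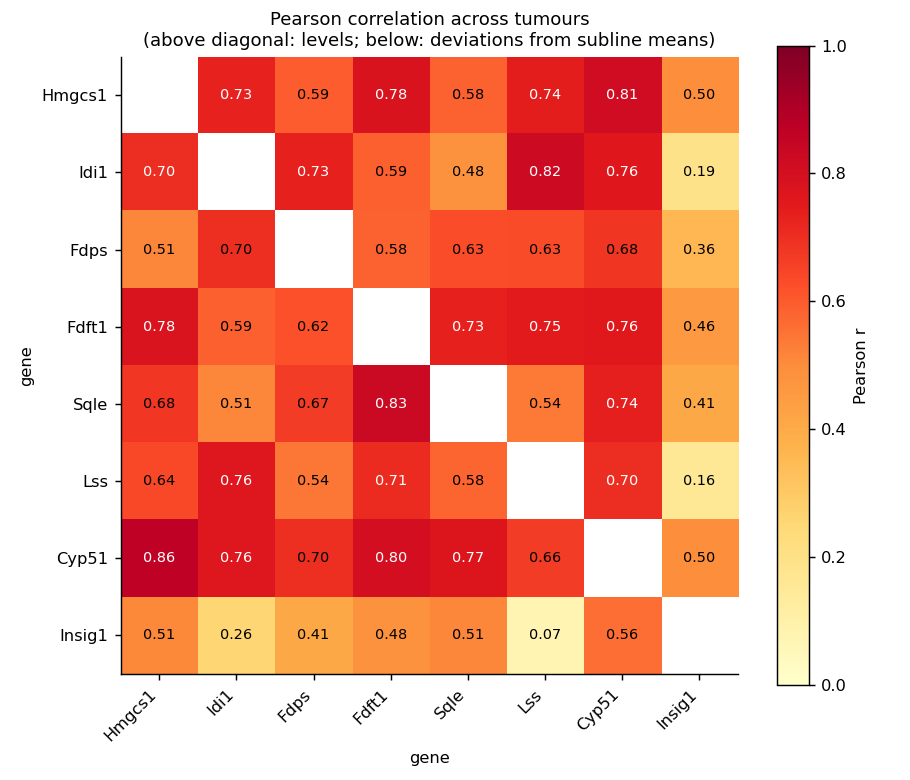
Pearson correlation between the brightest probe sets of the 8 genes across tumours, for log2 levels above the diagonal and for deviations from subline means below it. The enzymes share values from 0.48 to 0.86, and the lowest values are those of Insig1 with Lss and Idi1.

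Of 15 other cholesterol synthesis enzymes 12 had a probe set with a single symbol, and 8 of the 12 had a positive slope on Hmgcs1 past the threshold, with none negative, against 9.98% positive and 5.49% negative over all probe sets of array A. The median slope was 0.35. Msmo1, the sterol methyl oxidase that acts after Cyp51, ranked first among them (slope 0.70 ± 0.09, adjusted p = 2.61e-06). Lbr, a sterol reductase that is also the lamin B receptor (0.52 ± 0.09), Sc5d, the sterol desaturase (0.45 ± 0.08), Pmvk, phosphomevalonate kinase (0.47 ± 0.10), Dhcr7, the last reductase of one branch (0.49 ± 0.11), Mvd, Nsdhl and Hsd17b7 were the others. Mvk (0.00 ± 0.07), Ggps1 (-0.03 ± 0.07), Ebp (0.12 ± 0.08) and Tm7sf2 (0.23 ± 0.09, adjusted p = 0.0778) did not pass. With the 4 cell scores of fat, muscle, T cells and B and plasma cells in the fit, 6 of the 12 were called, Tm7sf2 among them.

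Of 6 genes of SREBP processing 0 were called, and 5 of them had slopes between -0.13 for Srebf1 and 0.06 for Scap, which carries SREBP to the Golgi apparatus; Srebf2, the gene of SREBP-2, had a slope of 0.04 ± 0.07. Mbtps2, a protease that releases SREBP, had 0.48 ± 0.13 on array B (adjusted p = 0.0612). Of 5 measured uptake and transport genes 2 were called positive, where 9.98% of all probe sets of array A were. They were Stard4, a sterol carrier (0.63 ± 0.09, rank 14), and Scarb1, a lipoprotein receptor (0.21 ± 0.07). Scarb1 was not called with the 4 cell scores in the fit (adjusted p = 0.461), and with the 7 neither was (adjusted p = 0.0607 for Stard4 and 0.423 for Scarb1). Of 5 measured efflux and storage genes, most of them targets of the sterol-sensing receptor LXR, 0 were called. Their slopes were all below 0, from -0.58 for Apoe to -0.18 for Nr1h3. With the 4 cell scores in the fit they ran from -0.43 for Mylip to 0.01 for Nr1h3. With the 7 they ran from -0.10 for Abcg1 to 0.06 for Nr1h3, and 0 were called in either fit.

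Of 12 genes of fatty acid synthesis, which is driven mainly by the related factor SREBP-1c, 1 was called positive, the desaturase Scd2 (0.30 ± 0.10, adjusted p = 0.0427), and the median slope was 0.07. This count is near the 9.98% over all probe sets. Fasn, fatty acid synthase, had a slope of -0.20 ± 0.26. Whether this list differs from the cholesterol enzymes was not tested. None of the genes of these 5 lists was called among sublines.

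Markers of some other cell types were also called on Hmgcs1 within sublines. Most of these calls, like most calls over the whole array, were lost with cell scores in the fit. All 5 proliferation genes measured had positive calls, among them Mki67 (0.64 ± 0.14) and Cdk1 (0.47 ± 0.10). The basal keratins Krt5 (0.83 ± 0.22) and Krt14 (0.93 ± 0.24) were called positive, 2 of 6 in their list. A further keratin of that list, Krt17 (-0.09 ± 0.07), was not called, nor were Mylk (-0.16 ± 0.30), Trp63 (0.05 ± 0.17) and Acta2 (0.22 ± 0.31). Negative calls were found for 3 of 6 macrophage genes (Adgre1, C1qb and C1qc), 2 of 5 T cell genes (Cd2 and Cd8a) and 1 of 4 endothelial genes (Tek). None of the 5 luminal, 5 milk protein, 4 fat, 5 muscle and 5 B and plasma cell genes was called in either direction. The background was 9.98% positive and 5.49% negative, as above. With the 4 cell scores in the fit, the background fell to 1.10% positive and 0.296% negative. Then 0 of the 5 proliferation genes were called (adjusted p = 0.0742 for Mki67 and 0.111 for Cdk1), and of the keratins 1, Krt5. Of the macrophage and endothelial genes 0 were called. The T cell genes were not called either, but the T cell score is made of these same genes. The loss of their calls was therefore largely built into the fit. With the scores of all 7 lists named above in the fit, 1 of the 12 other cholesterol enzymes, Msmo1, kept a positive call (slope 0.59, adjusted p = 0.0172).

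**Figure D5:**
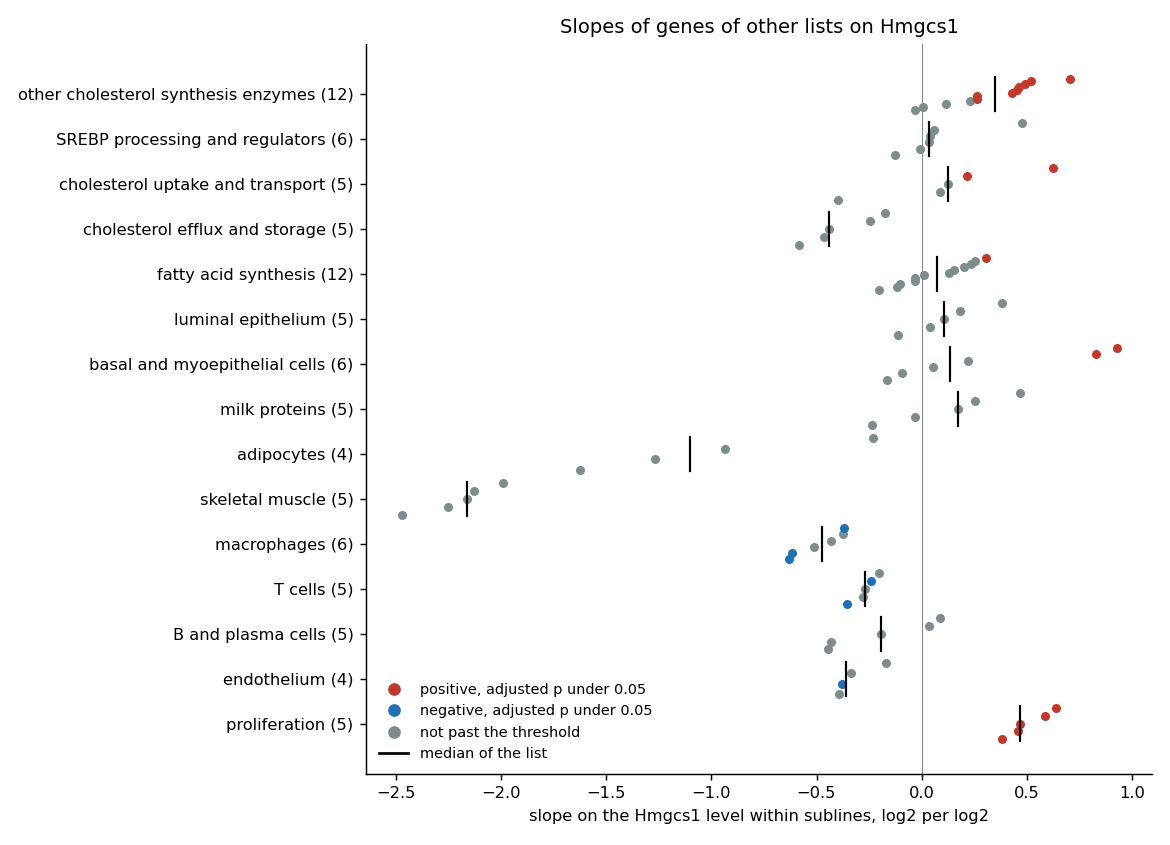
Slopes on the Hmgcs1 level within sublines (horizontal axis, log2 per log2) of the brightest probe set of each gene in 15 lists, with the number of genes measured in brackets and the list's median as a bar. Of the other cholesterol synthesis enzymes 8 of 12 are called positive, and of the fatty acid synthesis genes 1 of 12.

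The genes most alike to the sterol genes were taken as those with the highest mean Pearson r with the brightest array A probe sets of the 7 enzymes over 52 tumours. Msmo1 was first, at 0.72, and Mvd, the decarboxylase that makes isopentenyl diphosphate, was at rank 3, with 0.68. The others were Ddx39a (0.69), Dbf4 (0.67), Eif4ebp1 (0.67), Cenpa (0.66), Gmnn (0.66), Cdv3 (0.66), Tfrc (0.65) and Ube2t (0.65). Dbf4 activates the kinase that fires replication origins, Gmnn is geminin, which limits replication to 1 round per cycle, Cenpa is the histone of centromeres, and Tfrc is the transferrin receptor. The median over 22607 probe sets was -0.03. On deviations from subline means 4 of the 10 genes were again among the first 10 (Msmo1, Ddx39a, Cenpa and Tfrc).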

How the data were processed

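Gene expression was measured in 56 mouse mammary tumours on 2 Affymetrix arrays each. Per the submitters' processing notes, the authors made log2 expression values with RMA and deposited these. RMA version, genome build and probe set definition: not given in the sources used here. Precision is limited by the number of arrays. The labels give no scan date or other batch, and no 2 arrays held identical values.

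The log2 values were used as deposited, without the 64 control probe sets of each array, and the arrays were tested separately. Symbols came from the platform annotation, updated through RefSeq (GRCm38.p6). Of the 22626 probe sets of array A 20380 had 1 symbol, 691 several and 1555 none; of the 22511 of array B the numbers were 14661, 245 and 7605.

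limma 3.58.1 in R 4.3.3 fitted subline means with lmFit and eBayes (35 residual degrees of freedom on either array) for the F test and for each subline against the unweighted mean of the others. The slope on Hmgcs1 was added to that model. Benjamini-Hochberg adjustment of p-values ran over the whole of an array, within each subline for single sublines and without Hmgcs1 probe sets for slopes, and an adjusted p under 0.05 is called. Tests are two-sided, and scripts were tested on simulated data. Python 3.11.15 with numpy 2.4.6 computed the rest.

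The brightest probe set stands for a gene. Named were all members, the 10 genes most alike, and of each pathway list the genes called among sublines and up to 4 with the smallest slope p; other list genes were named after their values were seen. Likeness was planned over 8 members but uses 7, since Insig1 is not on array A. Members and lists were chosen with earlier results of these data known. Same-numbered tumours of different sublines are different animals: their deviations from subline means had a mean correlation of -0.003 (393 pairs), against 0.002 for different numbers (879 pairs), so the numbers do not pair them. Alternatives, among them other normalizations, a replicate block, array weights, covariates and leaving out tumours, are given below.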

Additional observations from a re-analysis of the deposited data

Results flagged for a closer look

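In subline 2, the one subline with 4 kept tumours, 1 tumour stood far from the other 3 in 3 of 21 probe sets; chance gives about 1 in 20. Insig1 (1454671_at) was 9.12 in tumour 2, against 7.83, 7.86 and 7.92 in the others. Lss (1420013_s_at) was 9.15 in the same tumour, against 8.60, 8.66 and 8.69. Fdps on its dim probe set 1438150_at was 5.66 in tumour 1, against 4.65, 4.67 and 4.79. These 3 lower values lay within the range of the bacterial controls on array A (4.20 to 5.21), and 5.66 lay above it. The probe sets share the 4 tumours and are not independent.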

How the results depend on the processing

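The absence of calls among sublines held under every alternative on array B and all but 1 on array A: array weights called 8 of 19 probe sets, where 40.8% of all probe sets were called. Single-subline calls on array A, 0 as reported, were 10 with all arrays. All 10 were in subline 23, whose array A tumours were otherwise left out (2.92% of the pairs, against 3.86% over all probe sets). There were 16 calls with array weights (14 in subline 27, 4.95%, against 4.08%) and 1 with composition scores (Fdps in subline 21). Leaving out each replicate number gave 0 to 1 (Idi1 in subline 21, without number 2). On array B all arrays gave 2 of 36, against 0.737%. Positive slope calls on array A were 10 of 15 as reported. Without the dimmer probe sets of the array 5 of the 15 remained in the test. All 5 were called, against 15.8% of all probe sets. With 7 list scores 3 of 15 were called (0.362% of all). Leaving out a replicate number gave 9 of 15 without number 1 (10.8%), 6 without number 2 (0.486%) and 4 without number 3 (0.0884%). With all arrays 8 of 15 were positive, against 35.9% of all probe sets. Negative slope calls, 1 as reported, were 5 with all arrays (37.5% of all probe sets), 2 with the replicate block (6.61%) or array weights (9.85%), 3 with the second Hmgcs1 probe set (13.6%), 0 without the dimmer probe sets, with quantile normalization, with 4 or 7 list scores or without the 2 farthest tumours, and 0 to 2 when a replicate number was left out. The Insig1 slope, not called as reported, was called (1 of 1) with all arrays, array weights, no subline means or without tumour 1 of subline 21, and 0 to 1 of 1 when a replicate number was left out. With the replicate number as a block, which does not pair the tumours, 0 probe sets were called among sublines and 10 slopes were positive. Slopes changed sign for Lss 1426913_at (-0.17 with all arrays), for Lss 1420014_at (-0.31 with all arrays, -0.033 with array weights, -0.19 to 0.19 when a replicate number was left out, -0.015 with the second Hmgcs1 probe set) and for Cyp51 1422534_at (0.084 with quantile normalization, 0.088 with composition scores, -0.27 to 0.20 when a replicate number was left out, 0.037 without subline means, 0.021 with 7 list scores), the last 2 not called as reported. The causes were not tested. The 7 list scores, the Gapdh signal, the 2 farthest tumours and tumour 1 of subline 21 were chosen as alternatives after seeing the data. Most sublines held 3 tumours, and leaving out a number left 2.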
